A study of Bos taurus with 38 samples.

Results

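PHGDH, PSPH, SHMT2, PCK2 and PYCR1 are 5 genes of serine, glycine, proline and phosphoenolpyruvate metabolism that were followed here in the Longissimus dorsi (LD) muscle of newborn beef calves, as 5 of 27607 genes in the deposited count table. They were chosen because earlier results on these same calves had listed them among the genes that differed between the Se-supplemented groups (TR1, TR2, TR3) and the control group (CTR). The question asked of them was whether the same single calves were high in all of them. All 5 were among the 12964 genes that passed the filter on low counts. Their Ensembl identifiers are ENSBTAG00000039719 (PHGDH), ENSBTAG00000013081 (PSPH), ENSBTAG00000031500 (SHMT2), ENSBTAG00000011934 (PCK2) and ENSBTAG00000000042 (PYCR1).

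RNA-seq had been run on LD biopsies of 38 calves, taken 12 to 48 h after birth. Their dams were Angus and Angus-cross cows aged 5 to 9 years that shared pasture, hay and a mineral mix with 120 mg/kg Se from Na selenite, and all had calved before. The 10 CTR calves came from dams given no Se-yeast, whereas the dams of the 9 TR1, 10 TR2 and 9 TR3 calves were given 3 Se-yeast boluses a week over 13 weeks (105 mg Se per week) in trimester 1, 2 or 3 of pregnancy. By the labels, females made up 4 of the CTR, 2 of the TR1, 3 of the TR2 and 5 of the TR3 calves. The study's text counts females among all calves sampled, which in TR2 and TR3 were more than have a library here. Its number of females differs from the labels in TR3, where it counts more calves. It also differs in CTR, where both count 10 calves, and the labels were used. The gene with the smallest p for sex in the fit, ENSBTAG00000054758, was at 5.81 to 12.9 CPM in the 14 calves labelled female and at 0 in all 24 labelled male. Each library came from a single biopsy of a single calf. Calves are named below by group and replicate number, which is only a name and pairs no calves across groups.

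Serine is made from a glycolytic intermediate in a short chain of reactions. PHGDH, PSAT1 and PSPH catalyse these in turn, and SHMT2 then splits serine in mitochondria into glycine and a carbon unit carried by folate. PYCR1 makes proline in mitochondria, and PCK2 is the mitochondrial form of phosphoenolpyruvate carboxykinase. All 5 are known targets of ATF4, the transcription factor of the integrated stress response, which cells use when amino acids run short or when their mitochondria are disturbed.

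Total counts per calf lay between 12921223 and 17471666, and the TMM factors used for normalization between 0.887 and 1.35. The 11 muscle fiber markers measured all passed the filter and summed to between 48800 and 182000 CPM (counts scaled to a common library size). One library stood apart, TR1 replicate 5, with the highest TMM factor (1.35) and the lowest share of counts in its 10 most abundant genes (16.3%, against up to 25.9%). In bulk tissue, fewer cells of a type and less RNA per cell cannot be told apart. Levels below are CPM after TMM, which does not correct for gene length, so that levels of different genes are not compared.

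The members differed far more from calf to calf than most genes. PHGDH, the entry enzyme of serine synthesis, ranged from 1.84 to 74.6 CPM in CTR, with a median of 15.1. In TR1, it lay between 1.54 and 116 CPM with a median of 2.81, in TR2 between 2.72 and 43.5 CPM with a median of 11.2, and in TR3 between 3.60 and 95.0 CPM with a median of 15.5. All 4 groups overlapped over most of their range, and the lowest and the highest calf of the whole series, 75.0-fold apart, were both in TR1. The means were 26.4 ± 25.4 (SD, n = 10) in CTR, 26.2 ± 42.7 (n = 9) in TR1, 13.5 ± 12.2 (n = 10) in TR2 and 32.6 ± 31.1 (n = 9) in TR3.

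PSPH, the phosphatase of the last step of serine synthesis, had a similar spread. It ranged from 4.07 to 88.2 CPM in CTR (median 31.8), from 1.63 to 117 in TR1 (median 6.25), from 2.81 to 34.3 in TR2 (median 8.81) and from 5.81 to 137 in TR3 (median 32.8). The highest calf, TR3 replicate 4, was 84.0-fold above the lowest, TR1 replicate 5. Means were 33.7 ± 27.3 CPM (SD, n = 10) in CTR, 30.1 ± 43.1 (n = 9) in TR1, 13.8 ± 12.3 (n = 10) in TR2 and 45.4 ± 42.9 (n = 9) in TR3, so that the SD was close to or above the mean in each group.

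SHMT2, the mitochondrial serine hydroxymethyltransferase, was the steadiest of the 5. Its CTR calves lay between 18.4 and 61.5 CPM (median 34.5; mean 37.0 ± 14.5, SD, n = 10), its TR1 calves between 21.4 and 58.6 (median 26.4; 33.7 ± 14.3, n = 9), its TR2 calves between 24.4 and 39.3 (median 32.4; 32.5 ± 5.31, n = 10) and its TR3 calves between 26.9 and 69.4 (median 36.4; 41.7 ± 15.0, n = 9). The whole series spanned 3.78-fold. The TR2 calves lay inside the range of the CTR calves.

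PCK2, which turns oxaloacetate into phosphoenolpyruvate in mitochondria, had the widest span of the 5, 225-fold. It ranged from 0.394 to 23.9 CPM in CTR (median 3.81; mean 7.63 ± 8.21, SD, n = 10), from 0.294 to 37.9 in TR1 (median 1.54; 8.11 ± 13.3, n = 9), from 0.208 to 13.4 in TR2 (median 2.21; 3.60 ± 4.07, n = 10) and from 0.734 to 46.9 in TR3 (median 6.49; 11.4 ± 14.5, n = 9). Its counts went from 3 in TR2 replicate 6 to 672 in TR3 replicate 4, so that the low calves rest on few reads. The groups overlapped throughout.

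PYCR1, the reductase of the last step of proline synthesis, ranged from 3.42 to 33.3 CPM in CTR (median 13.2; mean 15.1 ± 9.49, SD, n = 10) and from 4.71 to 46.4 in TR1 (median 7.12; 16.1 ± 16.1, n = 9). In TR2, it lay between 2.57 and 35.4 (median 10.1; 12.5 ± 10.4, n = 10) and in TR3 between 4.83 and 38.2 (median 19.9; 19.6 ± 11.9, n = 9). The 18.1-fold span of the series ran from TR2 replicate 6 to TR1 replicate 6.

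**Figure D1:**
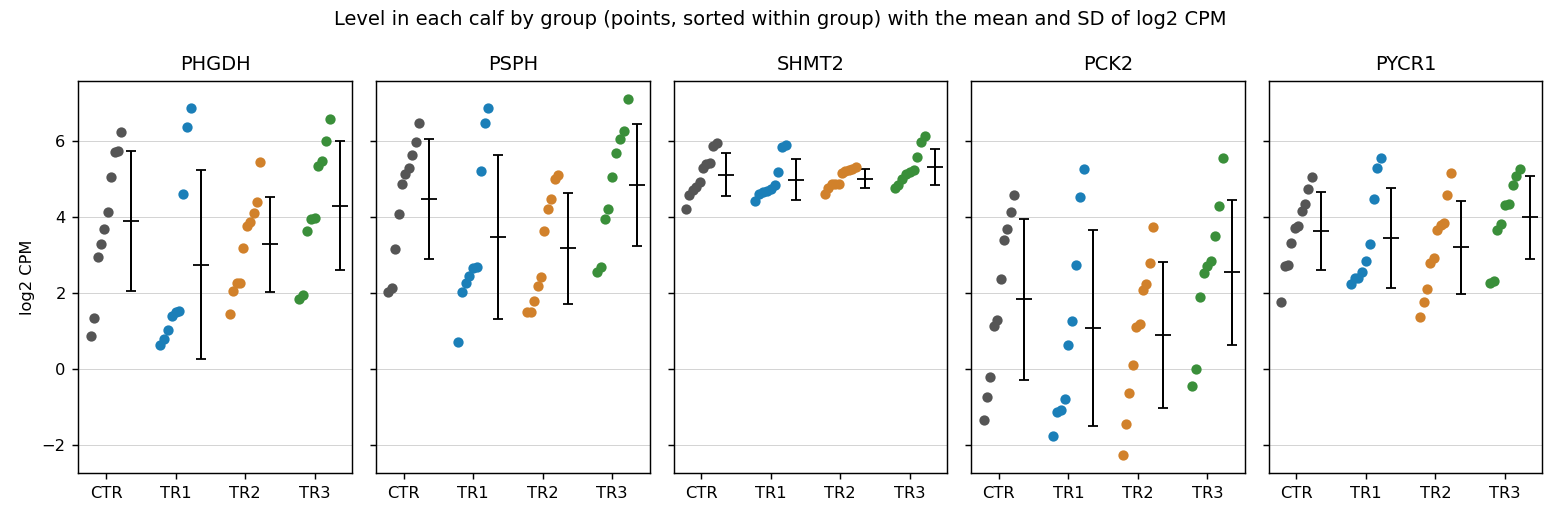
Log2 CPM of each gene (vertical axis) in each calf (points, 1 per calf, sorted within its group) by group (horizontal axis), with the mean and SD of log2 CPM as a bar beside each group. The groups overlap in every panel, and 3 TR1 calves lie above the other 6 for each gene.

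Measured as the SD of log2 CPM within groups, the spread was 1.82 for PHGDH, 1.68 for PSPH, 1.99 for PCK2 and 1.15 for PYCR1, against a median of 0.37 over all genes tested. These 4 genes varied more than 98.1 to 99.9% of genes. SHMT2, with 0.47, varied more than 65.9% of them. The biological coefficient of variation fitted by edgeR gave the same order, with 1.17 for PCK2, 1.07 for PHGDH, 0.975 for PSPH, 0.723 for PYCR1 and 0.322 for SHMT2, beside a median of 0.247 over all genes.

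The same single calves were high in several of the 5 genes. Correlations were computed on log2 CPM with the group mean removed, so that the differences between groups by which the genes had been chosen did not enter. All 10 pairs of genes were positively correlated across the 38 calves, with Pearson r from 0.72 to 0.94 and a median of 0.82. Each of the 10 had a two-sided permutation p of 1e-05 (Benjamini-Hochberg adjusted over the 10 pairs, 1e-05), the smallest that 100000 permutations within groups can give. The genes were chosen as a set with earlier results known, and these p values do not account for that choice.

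PHGDH and PCK2 were the closest pair. Their r was 0.94 (Spearman rho 0.92), and of 12963 other genes PCK2 was the one most correlated with PHGDH, as PHGDH was with PCK2. PHGDH and PSPH, the first and the last enzyme of serine synthesis, had r = 0.85 (rho 0.83), and PHGDH and PYCR1 also had r = 0.85 (rho 0.85). The r of PSPH was 0.86 with PCK2 (rho 0.86) and 0.79 with PYCR1 (rho 0.78), and PCK2 and PYCR1 had r = 0.82 (rho 0.81). Without the 2 calves farthest from the median of the first gene, and with group means taken again, these 6 correlations lay between 0.72 and 0.91.

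SHMT2, the gene with the smallest spread, was the loosest of the 5. Its r was 0.83 with PHGDH (rho 0.76), 0.75 with PSPH (rho 0.72), 0.74 with PYCR1 (rho 0.74) and 0.72 with PCK2 (rho 0.67). The permutation p of rho for SHMT2 and PCK2 was 4e-05, and without the 2 farthest calves its 4 correlations lay between 0.62 and 0.76. Correlations of this size were rare in the table: the share of all other genes with an r of at least 0.7 was 0.208% for PHGDH, 0.301% for PSPH, 0.262% for SHMT2, 0.193% for PCK2 and 0.224% for PYCR1, around a median r between -0.02 and -0.01.

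**Figure D2:**
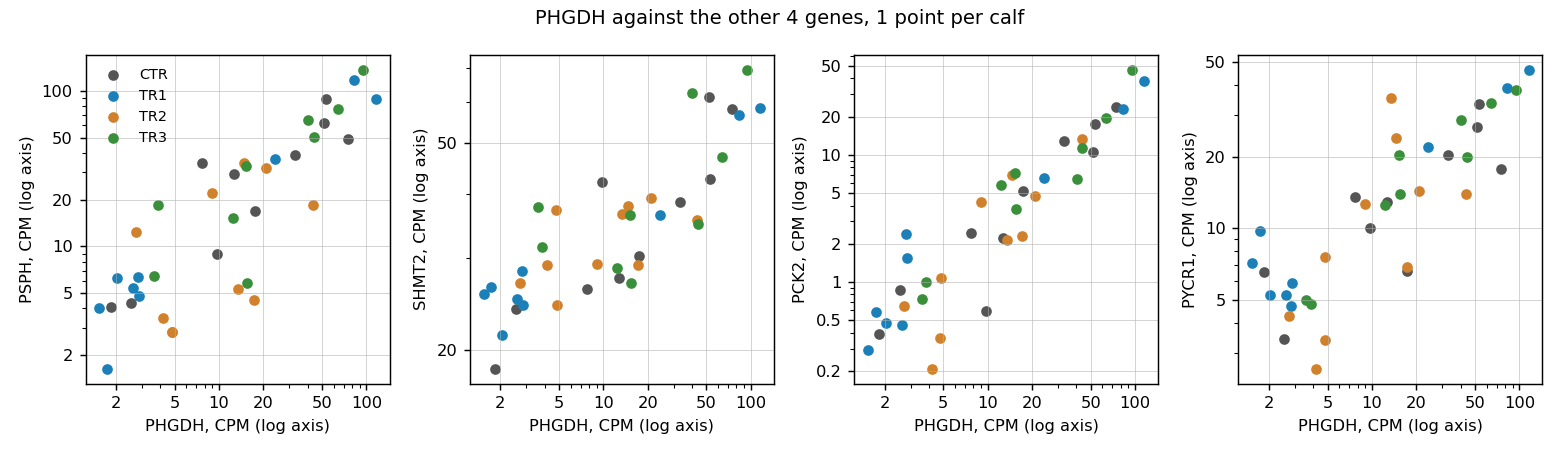
CPM of PSPH, SHMT2, PCK2 and PYCR1 (vertical log axes) against CPM of PHGDH (horizontal log axis), 1 point per calf, coloured by group. The points of all 4 groups follow a shared rising band, widest for SHMT2, with group-centred r of 0.85, 0.83, 0.94 and 0.85 from left to right.

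The correlations did not rest on a single calf or on TR1. With each calf left out in turn, all 10 pairs passed at an adjusted p of 0.05 every time, the median r lay between 0.80 (without TR1 replicate 6) and 0.85 (without TR2 replicate 1), and the lowest r of any pair was 0.68. Without the library that stood apart, TR1 replicate 5, the median was 0.83. Without the whole TR1 group, in which 3 calves were high and 6 low, the median of the 10 correlations was 0.76, their range was 0.61 to 0.92 and all 10 passed (largest adjusted p = 0.00103, permutation test). That alternative was chosen after seeing the data.

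Within single groups, tested by exact permutation over 9 or 10 calves, the picture differed in firmness. In CTR all 10 pairs passed, with r from 0.71 to 0.93 (largest adjusted p = 0.025, exact permutation test). In TR1 all 10 passed as well, with r from 0.88 to 0.97, although its rank correlations were lower, from 0.42 (PSPH and PYCR1) to 0.92, and 5 of the 10 had an unadjusted p of 0.05 or more (exact permutation test, up to 0.27). In TR3, 7 of 10 pairs passed, and those that did not were SHMT2 with PHGDH, PCK2 and PYCR1 (r from 0.58 to 0.66). In TR2, only PHGDH and PCK2 passed (r = 0.88, adjusted p = 0.0119, exact permutation test), all 10 values were positive between 0.43 and 0.88, and their median was 0.63. Whether TR2 differed from the other groups in these correlations was not tested. In the 24 males all 10 pairs passed and in the 14 females 9 of 10, the exception being PSPH and SHMT2 (r = 0.51).

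Ranks show which calves these were. TR3 replicate 4 had rank 1 of 38 calves for PSPH, SHMT2 and PCK2, rank 2 for PHGDH and rank 3 for PYCR1, with 95.0 CPM of PHGDH, 137 of PSPH, 69.4 of SHMT2, 46.9 of PCK2 and 38.2 of PYCR1. TR1 replicate 6 ranked between 1 and 4 in each gene and TR1 replicate 7 between 2 and 6. TR3 replicate 2 ranked between 5 and 7, CTR replicate 5 between 4 and 8, and CTR replicate 9 between 3 and 10. These 6 calves, 2 from each of CTR, TR1 and TR3 and none from TR2, were the ones in the top 10 of every gene. In all, 16 calves were in the top 10 of at least 1 gene.

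At the other end no calf was in the bottom 10 of every gene. CTR replicate 2 was the lowest on average, with ranks from 28 to 38, and TR1 replicate 9 (ranks 25 to 38) and CTR replicate 1 (ranks 28 to 36) came next. Split at the middle, 15 calves were among the upper 19 for all 5 genes, 11 were among the lower 19 for all 5, and 12 were mixed. Kendall's coefficient of concordance over the 5 rankings, which is 1 for identical rankings, was 0.841 on the levels and 0.834 with group means removed.

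Some of the 12 mixed calves went far against the shared order. TR2 replicate 1 ranked 4 of 38 for PYCR1 (35.4 CPM) but 29 for PSPH (5.29 CPM). CTR replicate 8 ranked 9 for SHMT2 (42.1 CPM) but 31 for PCK2 (0.598 CPM), and TR2 replicate 10 ranked 14 for SHMT2 (37.2 CPM) but 36 for both PSPH and PCK2 (2.81 and 0.367 CPM). The order of calves was thus shared in large part, but was not the same in each gene.

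**Figure D3:**
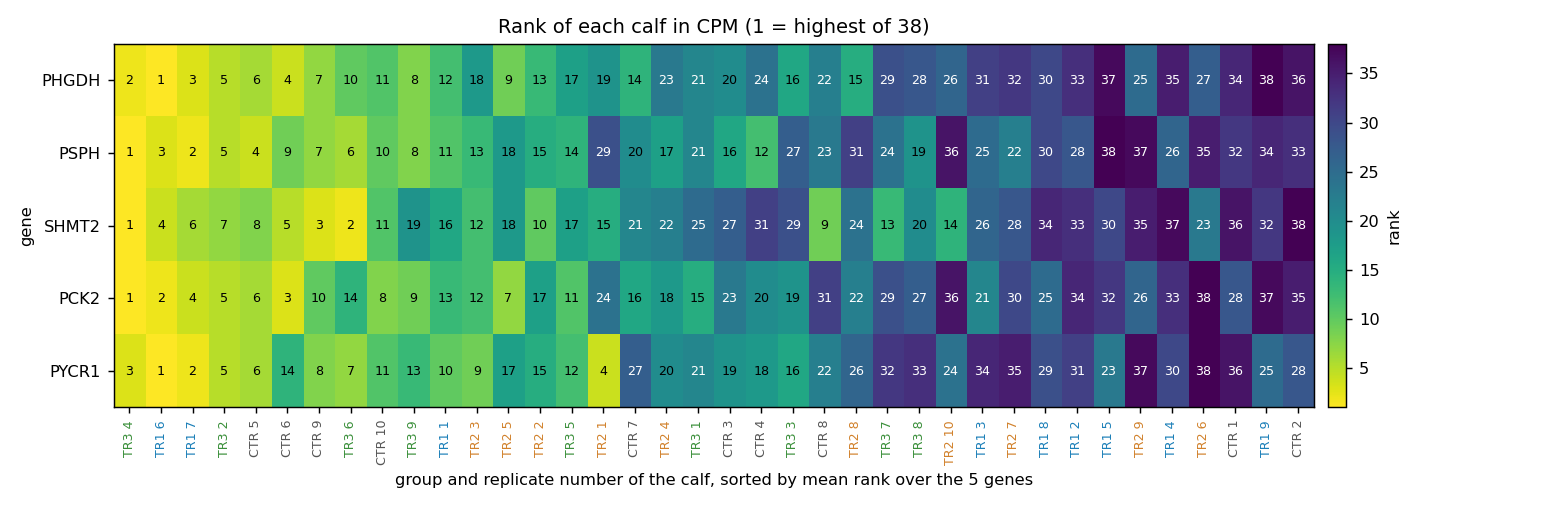
Rank in CPM of each of the 38 calves (horizontal axis, group and replicate number, sorted by mean rank) for each gene (vertical axis), with 1 as the highest. The top 10 of every gene shares 6 calves, TR3 replicates 4 and 2, TR1 replicates 6 and 7 and CTR replicates 5 and 9. The order is shared in large part, but 12 calves are among the upper 19 for 1 gene and the lower 19 for another. An example is TR2 replicate 1, with rank 4 in PYCR1 and rank 29 in PSPH.

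Differences between the supplemented groups and CTR are given as a description, because the genes were chosen from these contrasts. The edgeR quasi-likelihood fit, with dam age and sex as covariates, gave log2 fold changes in TR2 vs. CTR of -1.09 (SE 0.77) for PHGDH, -1.45 (SE 0.70) for PSPH, -0.18 (SE 0.21) for SHMT2, -1.22 (SE 0.84) for PCK2 and -0.31 (SE 0.49) for PYCR1. In TR3 vs. CTR, the values were 0.44 (SE 0.78), 0.66 (SE 0.71), 0.20 (SE 0.22), 0.67 (SE 0.82) and 0.44 (SE 0.52) in the same order. All 5 genes were thus below CTR in TR2 and above it in TR3. At an adjusted p of 0.05, edgeR called 0 of the 5 genes against CTR in any supplemented group and 0 between TR3 and TR1, as it called 0% of all 12964 genes in each of these contrasts. At an unadjusted p of 0.05, it was 0 of 5 in TR1 (2.55% of all genes), 1 of 5 in TR2 (PSPH; 8.34% of all genes), 0 of 5 in TR3 (1.35%) and 0 of 5 in TR3 vs. TR1 (5.85%). The PSPH value in TR2 was lost with any of 14 calves left out and in 3 other fits (no covariates, dam age in classes, robust). In TR3 vs. TR1, 3 of 5 (PHGDH, PSPH and PCK2) passed the unadjusted threshold without TR1 replicate 6, as did 7.41% of all genes in that fit, and none of the 5 passed the adjusted one. At an adjusted p of 0.05, DESeq2 also called 0 of the 5 in each.

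In the fit, TR1 vs. CTR had no single direction. The fitted log2 fold changes were -0.15 (SE 0.83) for PHGDH, -0.40 (SE 0.73) for PSPH, -0.10 (SE 0.22) for SHMT2, 0.06 (SE 0.88) for PCK2 and 0.01 (SE 0.51) for PYCR1. For PHGDH, the log2 ratio of the group means was -0.01, the difference of mean log2 CPM -1.12 and the log2 ratio of the medians -2.42. For PCK2, these were 0.09, -0.68 and -1.30, so that its sign changed with the summary used. By the last 2 summaries all 5 genes were below CTR. The difference of mean log2 CPM ran from -1.12 (PHGDH) to -0.13 (SHMT2), and the log2 ratio of the medians from -2.42 (PHGDH) to -0.38 (SHMT2). The calves behind this were the same for each gene: 3 of 9 TR1 calves lay above the CTR median and 6 below it, in all 5 genes.

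Single calves moved these values. Without TR1 replicate 6, TR1 vs. CTR became -1.36 for PHGDH and -1.17 for PCK2. Without TR3 replicate 4, the calf with the highest mean rank, TR3 vs. CTR fell to 0.03 for PHGDH and -0.03 for PCK2, whereas without CTR replicate 6 it rose to 1.14 and 1.46. In TR2, all 5 genes kept a negative sign with any calf left out, between -1.75 and -1.18 for PSPH, between -1.53 and -0.61 for PHGDH, and between -0.29 and -0.04 for SHMT2. TR3 vs. TR1 was positive for all 5, from 0.29 (SE 0.24) for SHMT2 to 1.06 (SE 0.83) for PSPH. That of PCK2 was 0.61 and ran from -0.01 without TR3 replicate 4 to 1.92 without TR1 replicate 6.

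**Figure D4:**
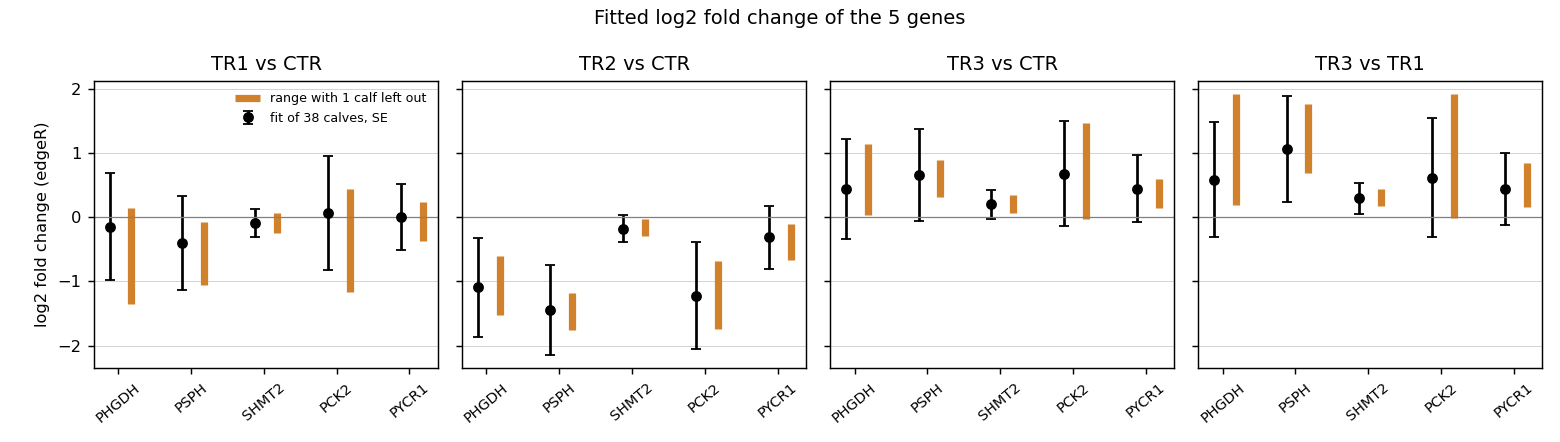
Fitted log2 fold change of each gene (horizontal axis) with its standard error (black) in 4 contrasts (panels), beside the range of the same value with each of the 38 calves left out in turn (orange). TR2 stays below 0 and TR1 vs. CTR spans 0 for each gene but PSPH.

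The study listed its genes by a published method in the CeTF package, whose formula its text does not give. A standardized difference was computed here from general knowledge of that method, and may not be the same measure: the difference of group means of variance-stabilized (VST) values, centred and divided by the SD of that difference over all genes, with no term for the spread between calves. In TR1 vs. CTR, it was -5.41 for PHGDH, -5.12 for PSPH, -2.40 for PCK2, -0.89 for PYCR1 and -0.79 for SHMT2. In TR2 vs. CTR, it was -5.93 for PSPH, -3.26 for PCK2, -3.09 for PHGDH, -1.79 for PYCR1 and -0.50 for SHMT2. In TR3 vs. CTR, it ran from 1.53 for SHMT2 to 3.63 for PCK2. Past 1.5 in size lay 3 of 5 genes below CTR in TR1 (5.19% of all genes), 4 of 5 below it in TR2 (5.48%) and 5 of 5 above it in TR3 (5.89%), with SHMT2 in TR3 just inside and PYCR1 in TR1 the nearest outside. Because the genes had been chosen from these contrasts, such counts are a description, and an excess over all genes follows from the choice. On log2 CPM in place of VST, SHMT2 in TR3 was at 1.07, which leaves 4 of 5 there. On the same scale the SD between calves of these genes was 2.19 to 12.3, larger than the difference itself for each gene in each contrast.

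No association of the 5 genes with sex or dam age, which were no part of the choice, passed the test. Female vs. male log2 fold changes were -0.15 for PHGDH (95% interval -1.51 to 1.22), -0.28 for PSPH (-1.48 to 0.93), 0.10 for SHMT2 (-0.25 to 0.44), 0.01 for PCK2 (-1.43 to 1.45) and -0.30 for PYCR1 (-1.13 to 0.53). Of the 5 genes, edgeR called 0 for sex, also at an unadjusted p of 0.05, where 0.0309% of all genes passed the adjusted test and 6.61% the unadjusted one. Per year of dam age, the values were 0.22 for PHGDH (-0.27 to 0.71), 0.31 for PSPH (-0.11 to 0.74), 0.05 for SHMT2 (-0.08 to 0.18), 0.28 for PCK2 (-0.26 to 0.82) and 0.02 for PYCR1 (-0.27 to 0.31), again with 0 of 5 called and 0 of 5 at an unadjusted p of 0.05 (0% and 3.36% of all genes). Without TR1 replicate 6, PSPH alone of the 5 passed the unadjusted threshold for dam age (0.40 per year, adjusted p = 0.984 in edgeR), as did 3.71% of all genes. DESeq2 called 0 for both terms. The intervals leave room for differences of more than 1 log2 unit in PHGDH, PSPH, PCK2 and PYCR1 between the sexes.

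Other genes of the same pathways were taken from lists written from general knowledge, and their likeness to the 5 genes was measured as r with the mean of the 5 z-scored genes over the 38 calves, group means removed. Of 12959 other genes, 1.16% had an r of at least 0.5 and 0.594% an r of at most -0.5. Only genes that the study's supplementary tables name could be matched to a list, and those tables largely hold the genes that it had found to differ in these calves. Of the 2887 other genes named there, 2.11% had an r of at least 0.5, against 0.884% of the 10072 genes without a matched name. The matched genes are thus not an independent sample of their lists, and the counts below hold for them alone. PSAT1, the transaminase between PHGDH and PSPH, had r = 0.90 and ranged from 1.21 to 181 CPM. Its own r was 0.96 with PSPH and 0.84 with PHGDH. The complete chain of serine synthesis thus varied together across calves.

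Of 33 listed enzymes of glycine and folate metabolism, 15 could be matched, and of the 14 other than SHMT2, 4 had an r of at least 0.5. The mitochondrial folate enzymes MTHFD2 (r = 0.90), ALDH1L2 (0.87) and MTHFD1L (0.82) carry on the carbon units that SHMT2 releases, and CBS (0.86) joins serine to homocysteine. The glycine cleavage genes AMT (-0.13), GCSH (0.09) and DLD (0.17), the mitochondrial folate carrier SLC25A32 (0.30, with 8.96% of genes as high) and CTH (0.14), the enzyme that follows CBS, did not reach 0.5. Of these, GCSH and DLD changed sign with another scaling or subset of calves.

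Of the 11 matched genes of proline, glutamate and transamination other than PYCR1, 3 had an r of at least 0.5. ASNS, asparagine synthetase, was the highest of all 12959 genes, with r = 0.95 and a range of 3.55 to 238 CPM. ALDH18A1 and OAT, which both make the precursor that PYCR1 reduces, followed with 0.52 and 0.50, but lay between 0.47 and 0.56 and between 0.41 and 0.52 over other scalings and subsets. ASS1 (-0.30), GOT1 (0.02) and GPT (0.07) did not reach 0.5, and the last 2 changed sign with another scaling or subset. PCK1, the cytosolic counterpart of PCK2, had an r of 0.14 at a mean of 0.826 CPM. Of the 11 genes of its list, only pyruvate carboxylase (PC, 0.51) reached 0.5, with 0.46 to 0.52 over the other scalings and subsets, and the glycolytic genes PKM, PGK1, ENO3 and LDHA lay between 0.33 and 0.46.

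Of 10 listed amino acid transporters known as ATF4 targets, 5 could be matched to a name, and each of these had an r above 0.5. SLC3A2 (r = 0.82), the shared heavy chain of several exchangers, was the highest, followed by SLC7A1 (0.80), the cationic amino acid transporter, SLC1A4 (0.76), SLC7A5 (0.72), the light chain for large neutral amino acids, and SLC1A5 (0.62). Of 27 listed tRNA synthetases, 5 could be matched, and 3 of these reached an r of 0.5, namely SARS1 (0.95), the seryl-tRNA synthetase, IARS1 (0.87) and GARS1 (0.83). WARS1 (0.48) and LARS1 (0.16) did not. Transporters and synthetases are known to be induced with amino acid enzymes in the ATF4 response.

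ATF4 itself was not analysed here. Of 28 listed genes of the integrated stress response, 10 could be matched and 3 had an r of at least 0.5, and these were ASNS, ATF5 (0.72), a transcription factor, and CHAC1 (0.69), which degrades glutathione. STC2 (0.40), DDIT3 (0.21), which encodes CHOP, ATF3 (0.17), CEBPB (0.01), DDIT4 (-0.08), EIF4EBP1 (-0.16) and PPP1R15A (-0.19) did not reach it. None of the 8 matched ER chaperone and ER stress genes (of 18 listed) reached 0.5, with r from -0.05 (HSP90B1) to 0.47 for ATF6, a sensor of ER stress, and 0.39 for HERPUD1, whereas HSPA5, the main ER chaperone, had -0.02. Of all genes, 1.61% were as high as ATF6 and 3.82% as high as HERPUD1. By list, an r of at least 0.5 was thus reached by 5 of 5 matched transporters and 3 of 5 tRNA synthetases. It was reached by 3 of 10 genes of the integrated stress response and 0 of 8 ER genes. The lists were not tested against each other. Over library sizes in place of TMM, VST values, residuals of dam age and sex, no centring and the calves without TR1, the r of each gene named in this and the preceding paragraph stayed on its side of 0.5, with the exception of WARS1, which reached 0.50, while CEBPB and DDIT4 changed sign.

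**Figure D5:**
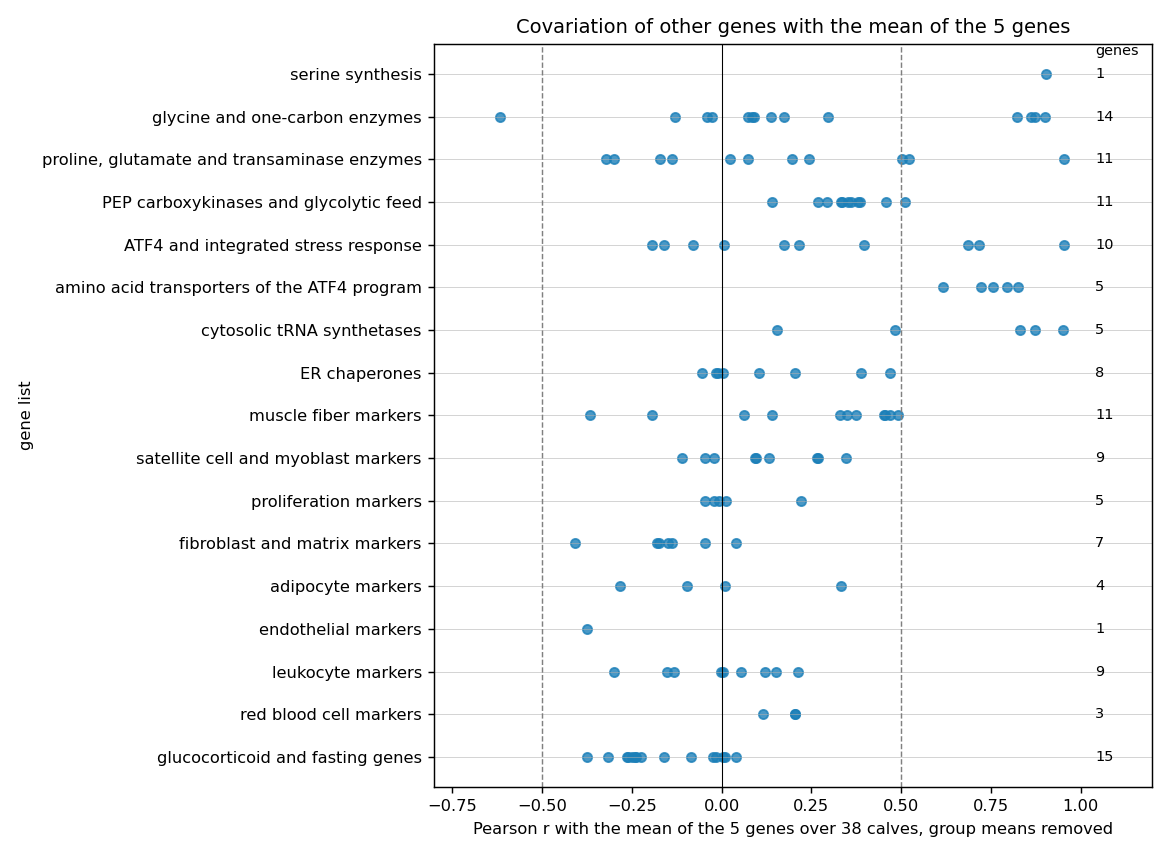
Pearson r of each other gene (points) with the mean of the 5 genes over 38 calves, group means removed (horizontal axis), for each gene list (vertical axis, with the number of genes at the right). Dashed lines mark 0.5 and -0.5. The 5 matched transporters all lie above 0.5, and no matched gene of the ER chaperone or cell type lists does.

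By the rule for named genes, the 10 most alike among those with a matched name were ASNS, SARS1, ADM2, PSAT1, MTHFD2, ALDH1L2, IARS1, CBS, GARS1 and RASSF4, with r from 0.95 to 0.83. ADM2 (0.92) encodes a hormone of the calcitonin family and had low levels (0 to 12.7 CPM), and RASSF4 (0.83) encodes a protein with a Ras association domain. Of the 20 genes with the highest r over the whole table, 7 had no matched name and are not described. Among the 5 most negative of the named genes were PRSS23 (-0.62), a secreted protease, RELL1 (-0.61), SELENOP (-0.60), the selenium carrier of plasma, and DCAF15 (-0.59), a ubiquitin ligase subunit. SELENOP lay between 57.5 and 149 CPM and was lower in calves with high levels of the 5 genes, with r between -0.62 (SHMT2) and -0.47 (PYCR1). It lay between -0.61 and -0.47 with their mean over the other scalings and subsets.

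These relatives had no called group difference either. In TR2 vs. CTR, the log2 fold change was -1.59 (SE 0.70) for PSAT1, -1.18 (SE 0.73) for ASNS, -1.01 (SE 0.51) for MTHFD2 and -1.05 (SE 0.59) for ALDH1L2. In TR3 vs. CTR, these were 0.63 (SE 0.71), 0.39 (SE 0.75), 0.71 (SE 0.54) and 1.11 (SE 0.59), and in TR1 vs. CTR -0.17 (SE 0.74), -0.28 (SE 0.80), -0.12 (SE 0.53) and 0.55 (SE 0.58), without a shared direction. Over the 15 genes of glycine and folate metabolism, SHMT2 included, the median log2 fold change vs. CTR was -0.10 for TR1, -0.18 for TR2 and 0.23 for TR3, beside 0.0016, 0.0075 and -0.0093 over all genes, with 0 called in each direction. The 5 matched transporters had a median of 0.32 in TR1, -0.06 in TR2 and 0.56 in TR3, with 0 called. No matched gene in these lists was called in TR1, TR2 or TR3 vs. CTR. Nor was any of the 12964 genes tested (0%), so that these counts of 0 are not particular to the lists.

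Cell composition and library measures were set beside the 5 genes. Of 70 correlations of the genes with 10 marker lists and 4 library measures, 0 passed at an adjusted p of 0.05 (permutation test). The strongest were those of PSPH with the muscle fiber markers (r = 0.53, rho 0.45, adjusted p = 0.0716) and with the share of counts in the 10 most abundant genes (r = 0.53, rho 0.44, adjusted p = 0.0716), and without the 2 farthest calves these were both 0.41. Both passed with any of 4 single calves left out (CTR replicate 6, TR1 replicates 8 and 9 and TR2 replicate 2), with r from 0.55 to 0.59 for the muscle fiber markers (adjusted p from 0.021 to 0.0455, permutation test), and both passed without centring (r = 0.49 for the markers, adjusted p = 0.0261). The other 4 genes had r of 0.24 or above with the muscle fiber markers. These markers did not move as 1 set. Their r with the mean of the 5 genes ran from -0.37 (DES) to 0.49 (TNNI2), with a median of 0.35 over the 11. MYH1 (0.47), TNNT3 (0.45) and MYLPF (0.45) came next after TNNI2, whereas DES and MB (-0.19) were negative. Of all genes, 1.24% were as high as TNNI2, which was at 0.53 without TR1. With the mean of the muscle fiber markers regressed out, an alternative chosen after seeing the data, all 10 pairs of the 5 genes passed, with a median r of 0.81 and a range of 0.69 to 0.93. That mean pools markers with r of either sign, and single markers were not regressed out.

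Markers of other cells had no called correlation with the 5 genes. Proliferation markers had r between -0.10 and 0.16, leukocyte markers between -0.19 and 0.11, red blood cell markers between -0.01 and 0.23, adipocyte markers between -0.10 and 0.07, and satellite cell and myoblast markers between 0.15 and 0.25. The r of the fibroblast and matrix markers lay between -0.41 (PYCR1) and 0.03, that of the single endothelial marker between -0.40 and -0.29, and that of 15 glucocorticoid and fasting genes between -0.39 (PSPH) and -0.14. Total counts had r between -0.07 and 0.16 and TMM factors between -0.49 (PSPH) and -0.20. Of these, PSPH passed with the glucocorticoid and fasting genes without centring (r = -0.485, adjusted p = 0.0261, permutation test) and with the TMM factor without TR1 replicate 8 (r = -0.555, adjusted p = 0.035, permutation test). The number of genes detected had r between -0.43 (SHMT2, adjusted p = 0.0716, permutation test) and -0.23, and that of SHMT2 passed without TR2 replicate 2 (r = -0.45, adjusted p = 0.0455). The part of these measures, muscle fiber markers included, in the shared variation of the 5 genes was not tested.

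SHMT2 overlaps NDUFA4L2 in the RefSeq annotation of ARS-UCD2.0, and PYCR1 overlaps a long noncoding RNA. The r of SHMT2 with NDUFA4L2 was 0.03 at a mean of 2.85 CPM for the latter. The strand setting of the counts is not given in the sources used here, so that reads of overlapping genes on opposite strands could not be told apart.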

How the data were processed

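Reads were trimmed and filtered on quality by the authors, who aligned them to ARS-UCD1.2 using STAR 2.7.3a and let STAR count them per gene of Ensembl release 100. The deposited values are raw counts of 27607 genes in 38 calves (poly-A, strand-specific libraries), without normalization, and every column was used. No read was mapped again here. The strand column kept is not given in the sources used here.

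The filter on low counts (edgeR filterByExpr, sex and group) left 12964 of 21038 genes with at least 1 count. Genes were tested by quasi-likelihood (edgeR 4.0.16, glmQLFTest) with TMM on all calves, with dam age (linear), sex and group as terms, Benjamini-Hochberg adjusted over all genes and called at 0.05. It was tested on simulated data with known changes. Standard errors were taken as the log2 fold change over the square root of F. Correlations used log2 CPM (prior count 2) with group means removed, and two-sided permutations of calves within groups (100000, 20000 with a calf left out for the marker measures, all orders within a single group). The standardized difference used the VST of DESeq2 1.42.0. The calf is the replicate. Counting error for low counts is part of the spread between calves.

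Gene names came from the study's supplementary gene tables, mostly of genes it found to differ in these calves or of their regulators, which pair 2892 of 27607 identifiers, so that only part of each list could be measured. The gene reference supplied (RefSeq, ARS-UCD2.0) held no Ensembl identifiers and is of another build, so no coordinates or sequences are printed. The genes given with values are the 5 members, the genes of the pathway lists and, by rule, the 10 named genes with the highest and the 5 with the lowest r with the mean of the members. Some of these genes are counted but not reported by name here. The members and lists were chosen with earlier results of these data known. Alternatives were DESeq2, library sizes, a robust fit, no filter, fewer groups or covariates, dam age in classes, other scales and centrings, single groups and sexes, and each calf left out. Leaving out TR1, regressing out muscle fiber markers and the other scalings for likeness to the members were added after seeing the data. R 4.3.3 was used for the fits and Python 3.11.15 for the permutations (numpy 2.4.6) and plots (matplotlib 3.10.9).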

Additional observations from a re-analysis of the deposited data

Results flagged for a closer look

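In 3 of 20 combinations of gene and group, the highest calf lay farther from its neighbour on the CPM scale than Dixon's test allows. They were PHGDH with 43.5 CPM and PCK2 with 13.4 CPM, both in TR2 replicate 5, and PCK2 with 46.9 CPM in TR3 replicate 4. Chance flags about 1 in 20 groups, and on the log2 scale 0 values were flagged. TR2 replicate 5 ranked 9 of 38 for PHGDH and 7 for PCK2, but 17 or 18 for PSPH, SHMT2 and PYCR1.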

How the results depend on the processing

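The number of called members for sex and dam age was 0 under every alternative run. Without TR1 replicate 6, TR1 vs. CTR and TR3 vs. TR1 moved by more than their SE in PHGDH and PCK2. The TR1 vs. CTR value of PHGDH, for example, went from -0.15 (SE 0.83) to -1.36. All other fold changes between groups moved by less than their SE with any single calf left out. All 10 member pairs passed under every scale, centring and left-out calf, but 1 of 10 passed within TR2, where the median r was 0.63, against 0.95 within TR1. The cause was not tested.

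Over the whole table, calls depended on the fit. Without the filter, edgeR called 2 genes in TR3 vs. CTR, 11 in TR3 vs. TR1, 11 for sex and 3 for dam age, where DESeq2 called 1 in TR2 vs. CTR and the fit without covariates 1 for dam age. With a calf left out, the counts lay between 0 and 1 in TR1 and TR2 vs. CTR, between 4 and 8 for sex and between 0 and 1 for dam age. Of the correlations with marker lists and library measures, 3 passed without centring (PSPH in each) and between 0 and 3 with a calf left out.

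Fold changes that missed the threshold changed sign in some fits. Without covariates, the sex term was 0.12 for PHGDH and 0.079 for PSPH, and with dam age as a factor -0.12 for PCK2. The dam age term of PYCR1 was -0.0018 with library sizes and -0.0094 without other covariates. With a calf left out, the sex term lay between -0.73 and 0.14 for PHGDH and between -0.68 and 0.30 for PCK2, and the dam age term between -0.014 and 0.092 for SHMT2 and between -0.13 and 0.12 for PYCR1. No paired analysis was possible because the labels number no replicates across groups and do not give the blocks in which cows had been assigned.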
